A study of Mus musculus with 32 samples.

Results

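Open chromatin was compared between the endothelium of mouse liver and its macrophages, the Kupffer cells, at the loci of 5 receptor tyrosine kinases of blood and lymph vessels. The members were the ATAC-seq peaks with centres in mm9 windows around Kdr (chromosome 5, 76.28 to 76.43 Mb), Flt1 (chromosome 5, 148.34 to 148.57 Mb), Flt4 (chromosome 11, 49.39 to 49.50 Mb), Tek (chromosome 4, 94.37 to 94.57 Mb) and Tie1 (chromosome 4, 118.11 to 118.19 Mb). Peaks of both cell types that overlapped by at least 1 bp are called shared, and the rest endothelial-only or Kupffer-only. The windows held 111 such sites of 175337 in all, counting each endothelial peak and each Kupffer-only peak once.

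ATAC-seq marks open DNA by the cuts of a transposase. The study asked how the hepatocyte clock acts on other liver cell types, and its labels list 32 libraries of endothelial or Kupffer cells from male C57BL/6J mice on normal chow. For each cell type there were 4 libraries at ZT10 and 4 at ZT22 (hours after lights on) from WT mice, and the same numbers from mice with REV-ERB a/b double knockout, which the series design places in hepatocytes of adult mice and not in the cells profiled. The data used here are 1 peak list per cell type, in which libraries, genotypes and times cannot be told apart. The lists give positions alone, so no peak has a height, a depth or a replicate, and knockout and time were not analysed here.

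VEGF receptors bind the vascular endothelial growth factors that drive the growth, survival and permeability of vessels. Tek, also called Tie2, binds the angiopoietins, which stabilise or loosen vessels, and Tie1 is its partner receptor. In the liver these receptors are best known from the sinusoidal endothelium, where VEGF signalling helps to keep the cells fenestrated.

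The windows carry the names of the receptor genes by definition, and no mm9 annotation was used here to place exons or start sites in them. Other genes may lie in the same windows. A peak in a window is therefore not assigned to the receptor gene. The RefSeq promoter table held an entry for 5 of 5 receptors. The 250 bases before each start are shown, 5′ to 3′ on the gene's strand, because they are the sequences of these loci that can be given without the mm9 genome. Capitals mark GGAA and its reverse complement TTCC, the core that ETS factors, a family with a central role in endothelial genes, bind. Positions are on GRCm38.p6 and cannot be set against the peaks on mm9.
Kdr, chr5:75978456-75978705, minus strand: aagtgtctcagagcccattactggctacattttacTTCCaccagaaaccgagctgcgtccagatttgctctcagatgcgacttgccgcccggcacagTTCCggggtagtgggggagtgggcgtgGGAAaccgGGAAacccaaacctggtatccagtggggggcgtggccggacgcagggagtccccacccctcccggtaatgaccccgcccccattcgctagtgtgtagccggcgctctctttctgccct
Flt1, chr5:147726012-147726261, minus strand: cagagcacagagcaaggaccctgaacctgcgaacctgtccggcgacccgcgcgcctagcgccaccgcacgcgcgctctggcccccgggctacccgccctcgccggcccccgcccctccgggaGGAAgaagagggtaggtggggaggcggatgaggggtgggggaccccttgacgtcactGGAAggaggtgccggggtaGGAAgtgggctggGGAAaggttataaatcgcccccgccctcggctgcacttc
Flt4, chr11:49609429-49609678, plus strand: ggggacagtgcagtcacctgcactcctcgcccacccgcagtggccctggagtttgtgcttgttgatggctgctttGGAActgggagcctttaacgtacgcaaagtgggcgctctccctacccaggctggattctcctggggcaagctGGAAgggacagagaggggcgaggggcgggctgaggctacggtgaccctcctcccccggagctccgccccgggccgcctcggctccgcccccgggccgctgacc
Tek, chr4:94739039-94739288, plus strand: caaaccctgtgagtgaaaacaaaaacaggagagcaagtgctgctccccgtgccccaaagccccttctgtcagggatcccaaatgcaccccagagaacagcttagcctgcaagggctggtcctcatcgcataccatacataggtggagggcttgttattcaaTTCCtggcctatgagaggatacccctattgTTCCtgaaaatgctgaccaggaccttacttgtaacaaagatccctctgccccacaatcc
Tie1, chr4:118489850-118490099, minus strand: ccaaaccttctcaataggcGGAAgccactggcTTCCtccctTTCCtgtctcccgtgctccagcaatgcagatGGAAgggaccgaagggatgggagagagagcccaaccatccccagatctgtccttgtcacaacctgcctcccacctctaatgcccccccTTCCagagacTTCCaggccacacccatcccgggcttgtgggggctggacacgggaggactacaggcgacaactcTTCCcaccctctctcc

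The core occurred 7 times before Tie1, 4 times before Kdr and Flt1, and 2 times before Flt4 and Tek. Of 32851 promoters in the table, 93.4% held at least 1 match in the same 250 bases, with a median of 3 matches. At least 7 matches, as before Tie1, were found in 3.82% of them. At least 4, as before Kdr and Flt1, were found in 33.4%, and at least 2, as before Flt4 and Tek, in 76.8%. The Sp1 motif GGGCGG was found before Kdr (2 matches), Flt1 (3) and Flt4 (3) and not before Tek and Tie1, and 32.7% of promoters held it. None of the 5 sequences held the forkhead motif TGTTTAC (3.17% of promoters), the nuclear receptor core motif AGGTCA that ROR and REV-ERB factors bind (14% of promoters), the E-box CACGTG of the clock activators (6.02%) or the AP-1 motif TGANTCA (6.75%). Both strands were searched, and none of the 6 motifs contains another of them. The sequence before Flt1 contains TATAAA, and those of the other receptors do not. The VEGF receptor sequences had GC contents of 61.6% (Kdr), 70.4% (Flt1) and 68.4% (Flt4), that of Tek had 51.2% and that of Tie1 60.4%, against a median of 52.4%. These matches describe the letters of the 250 bases before each start and not bound sites, and the mm9 windows were not searched.

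Endothelial-only peaks made up most of the sites in the receptor windows. Over the 5 windows together there were 73 endothelial-only peaks, 13 Kupffer-only peaks and 25 shared peaks. Of the 98 endothelial peaks, 74.5% were endothelial-only (exact binomial 95% interval 64.7% to 82.8%), against 41.7% of all 91453 endothelial peaks. Of the 38 Kupffer peaks, 34.2% were Kupffer-only (19.6% to 51.4%), against 60.9% of all 137684 Kupffer peaks. Among the 86 peaks found in 1 cell type, 84.9% were endothelial-only (75.5% to 91.7%), against 31.2% genome-wide. The intervals treat peaks as independent and cover counting error only. No test was made of this or any comparison below, since each cell type has 1 list and peaks are not replicates.

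The balance of the lists in these windows was opposite to that of the genome. There were 2.58 endothelial peaks per Kupffer peak in the windows, whereas the whole lists gave 0.664. Endothelial peaks covered 2.87% of the 770 kb and Kupffer peaks 0.966%. Over chromosomes 1 to 19 and X the covered parts were 0.727% and 1.07%. Flt1 alone accounted for 4426 of the 7439 bp of Kupffer peaks, and without it the Kupffer coverage was 0.558% and the endothelial coverage 2.72%. Kupffer coverage was 1.92% at Flt1, above the genome's value, and between 0.363% (Kdr) and 0.834% (Tie1) in the other windows, below it. Endothelial coverage was above the genome's value in each window, from 1.74% at Tie1 to 3.87% at Kdr. The chromosomes of these loci had endothelial-only shares of 42.2% (chromosome 4), 42.9% (chromosome 5) and 37.9% (chromosome 11) of their endothelial peaks, near the value of the whole list.

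**Figure D1:**
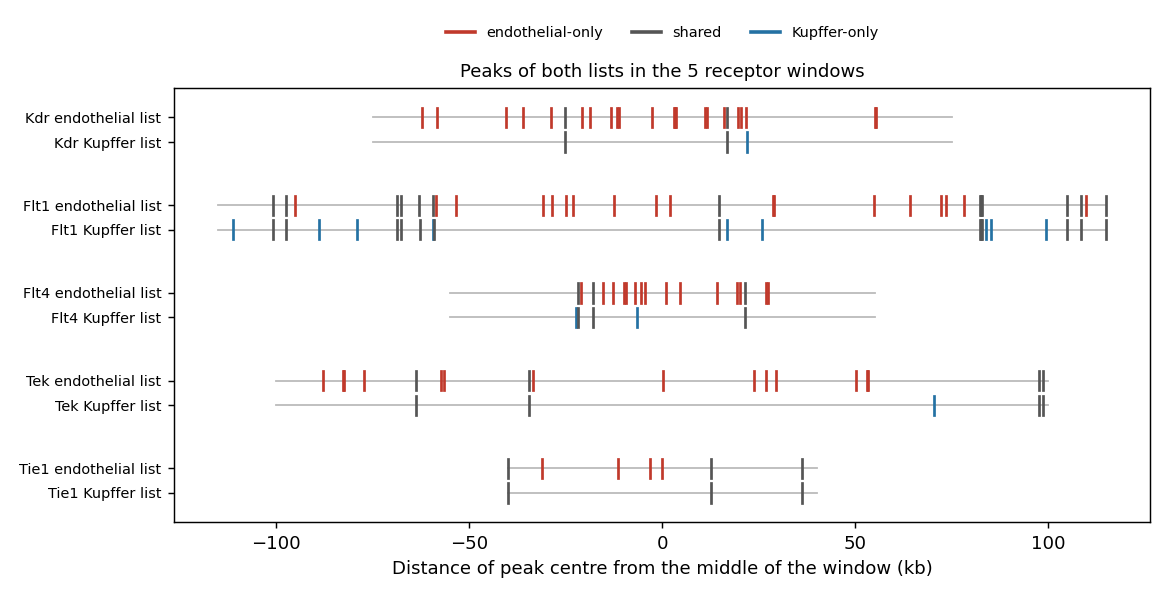
Position of each peak centre, in kb from the middle of its window, for the endothelial list (upper line) and the Kupffer list (lower line) of each receptor window; the grey lines show the extent of the windows. Endothelial-only peaks (red) number 22 at Kdr, 18 at Flt1, 15 at Flt4, 14 at Tek and 4 at Tie1, and Kupffer-only peaks (blue) number 1, 9, 2, 1 and 0.

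In each of the 5 windows endothelial-only peaks outnumbered Kupffer-only peaks, which held in 27.3% of the 17704 windows of 100 kb with a peak. The receptor windows range from 80 to 230 kb, and the background share was 26.5% with windows of 50 kb and 27.6% with windows of 200 kb. By the share of endothelial peaks that were endothelial-only, the order was Kdr (91.7%, 73% to 99%), Flt4 (83.3%, 58.6% to 96.4%), Tek (77.8%, 52.4% to 93.6%), Flt1 (58.1%, 39.1% to 75.5%) and Tie1 (57.1%, 18.4% to 90.1%). The intervals of all these windows overlap, those of Kdr and Flt1 by little. Overlap of separate intervals does not settle whether windows differ, and the order was not tested.

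Kdr, the main signalling receptor for VEGF-A on endothelium, had the largest share of endothelial peaks without a Kupffer counterpart, with an interval that overlaps those of the other windows. Its 150 kb held 24 endothelial peaks and 3 Kupffer peaks. Of these, 22 endothelial peaks had no Kupffer counterpart, 2 were shared and 1 Kupffer peak stood alone. Among windows of the same length across the genome, 0.189% held at least as many endothelial-only peaks, and 0.055% did so with at most 1 Kupffer-only peak. Endothelial peaks covered 5812 bp and Kupffer peaks 544 bp, a ratio of 10.7.

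The longest run of endothelial-only peaks at Kdr not interrupted by any other peak held 12 peaks in 37.2 kb. It began with a 310 bp peak at chr5:76333955-76334264 and ended with the widest endothelial-only peak of the window, 502 bp at chr5:76370621-76371122. Another run of 5 peaks lay below it, on the far side of a shared peak. The second widest, 377 bp at chr5:76341458-76341834, lay inside the long run, 11583 bp from the nearest Kupffer peak. Within that run 3 endothelial-only peaks followed one another in 837 bp at chr5:76357913-76358749, separated by short gaps.

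Both shared sites at Kdr lay beside the run, 1 at each end. The lower shared site was 313 bp wide in endothelial cells (chr5:76329727-76330039) and 242 bp in Kupffer cells (chr5:76329633-76329874), with 148 bp in common. The upper shared site was 151 bp wide in both lists and displaced by 2 bp (chr5:76371632-76371782 in endothelial cells). The 502 bp endothelial-only peak ended 511 bp before the Kupffer peak of that site. The Kupffer-only peak, 151 bp at chr5:76377007-76377157, lay 132 bp from the nearest endothelial peak, so that it would count as shared with a tolerance of 500 bp. Between 76377158 and 76409950 on chromosome 5 neither list held a peak, and 2 endothelial-only peaks lay just above that stretch.

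Flt1 encodes VEGFR1, which binds VEGF-A tightly, also acts as a decoy in a soluble form, and is known from monocytes and macrophages as well as endothelium. Its window, the longest one, held the most Kupffer peaks, and whether these belong to Flt1 was not tested. Kupffer-only peaks numbered 3.91 per 100 kb in the window, above the genome average of 3.18. In the stretches of equal length on its lower and higher side they numbered 11.7 and 8.26. In 230 kb there were 31 endothelial and 22 Kupffer peaks, namely 18 endothelial-only, 9 Kupffer-only and 13 shared sites. The share of endothelial-only peaks among those of 1 cell type was 66.7% (46% to 83.5%), and 9 of the 13 Kupffer-only peaks of all windows lay here. Of windows of this length, 2.07% held at least 18 endothelial-only peaks, and 0.614% did so with at most 9 Kupffer-only peaks. With the window extended by 50 kb on each side, the order turned, with 19 endothelial-only and 22 Kupffer-only peaks.

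The kinds of peaks took different places within the Flt1 window. The longest run of endothelial-only peaks held 9 peaks over 60.8 kb (chr5:148396391-148457147), all inside a stretch of 73.7 kb without a Kupffer peak. It contained the widest endothelial-only peak of any of the receptor windows, 600 bp at chr5:148442099-148442698, 26833 bp from the nearest Kupffer peak. A further run of 7 endothelial-only peaks lay above it, among them the second widest, 360 bp at chr5:148527077-148527436. With the window divided into 3 equal parts, the middle part held 9 endothelial-only, 1 shared and 2 Kupffer-only peaks, and the lower and upper parts held 6 shared peaks each.

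The closest group of shared sites at Flt1 comprised 3 endothelial peaks within 1059 bp, at chr5:148537061-148538119. Each was paired with the Kupffer peak that it overlapped most. The first of these endothelial peaks was the widest shared peak of the window, 335 bp. It overlapped its Kupffer partner of 270 bp (chr5:148537313-148537582) by 83 bp. Their centres were 219.5 bp apart, the largest displacement among the shared sites of all 5 windows. The second endothelial peak also overlapped that 270 bp Kupffer peak. The widest Kupffer-only peak, 290 bp at chr5:148471510-148471799, lay 1690 bp from an endothelial peak. Another Kupffer-only peak, at chr5:148395449-148395599, missed an endothelial peak by 12 bp and was named after its value was seen. Its call as Kupffer-only therefore rests on the 1 bp rule.

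Flt4 encodes VEGFR3, the receptor for VEGF-C and VEGF-D, which is known from lymphatic vessels and is also made by sinusoidal endothelium. The window of 110 kb held 18 endothelial and 5 Kupffer peaks, with 15 endothelial-only, 2 Kupffer-only and 3 shared sites. At least 15 endothelial-only peaks were found in 0.507% of windows of this length, and in 0.134% together with at most 2 Kupffer-only peaks. Endothelial peaks covered 3601 bp and Kupffer peaks 869 bp. The density of endothelial-only peaks, 13.6 per 100 kb, was close to that of the Kdr window, 14.7 per 100 kb, and the genome average was 1.44.

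At Flt4 the peaks were packed into the middle of the window. The densest 10 kb of any of the 5 windows was here, with 6 endothelial-only peaks and 1 Kupffer-only peak between 49429399 and 49439559. An overlapping span that starts at the next peak, 49432141, tied with it. The widest endothelial-only peaks at Flt4 were 294 bp at chr11:49437755-49438048 and 287 bp at chr11:49429399-49429685. Both lay in the span named first, and only the 294 bp peak lay in the tied one. The longest run held 7 peaks over 25.8 kb, from chr11:49439409-49439559 to chr11:49465047-49465197, each of these end peaks being 151 bp wide. The widest shared peak, 263 bp at chr11:49423137-49423399, contained its whole Kupffer partner of 151 bp. The Kupffer-only peaks lay 267 bp and 376 bp from an endothelial peak, at chr11:49422676-49422869 and chr11:49438425-49438575. Below the first Kupffer peak neither list held a peak for 338 kb, from 49085115 to 49422675, a stretch that includes the lowest part of the window and its whole lower flank.

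Tek, the angiopoietin receptor, had few Kupffer peaks, and its endothelial-only peaks were less dense than those at Kdr and Flt4. In 200 kb there were 18 endothelial and 5 Kupffer peaks, with 14 endothelial-only, 1 Kupffer-only and 4 shared sites. The density of endothelial-only peaks was 7 per 100 kb, and 3.78% of windows of this length held at least as many, 0.288% with at most 1 Kupffer-only peak. A stretch of 105 kb, or 52.3% of the window, held no Kupffer peak and 8 endothelial peaks, all endothelial-only. These 8 formed the longest run, over 87.1 kb, from chr4:94436302-94436550 to chr4:94523129-94523375.

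The widest endothelial-only peak at Tek, 376 bp at chr4:94496706-94497081, lay 43198 bp from the nearest Kupffer peak. The second widest, 249 bp at chr4:94436302-94436550, was 607 bp from one. The widest shared peak, 268 bp at chr4:94406004-94406271, contained its whole Kupffer partner of 151 bp, and another shared site, at chr4:94435457-94435690, was 234 bp wide in both lists with centres 4 bp apart. The Kupffer-only peak (chr4:94540280-94540430, 151 bp) lay 16904 bp from the nearest endothelial peak, the greatest such distance among the Kupffer-only peaks of these windows. The other 2 shared sites lay at the upper edge of the window, near 94.57 Mb.

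Tie1, an orphan receptor that acts together with Tek, had the shortest window and the fewest peaks. Its 80 kb held 7 endothelial and 3 Kupffer peaks. None of the Kupffer peaks stood alone, 3 sites were shared and 4 peaks were endothelial-only. At least 4 endothelial-only peaks were found in 16.6% of windows of this length, and in 2.46% together with no Kupffer-only peak, so the count of endothelial-only peaks alone lay nearer to the background here than in the other windows. The 4 endothelial-only peaks followed one another without interruption over 31.4 kb. They were 254 bp (chr4:118118752-118119005), 175 bp (chr4:118138339-118138513), 151 bp (chr4:118146650-118146800) and 155 bp (chr4:118149966-118150120) wide. The shared sites flanked this run. The widest, 290 bp at chr4:118162449-118162738, lay wholly inside a Kupffer peak of 320 bp with centres 1 bp apart. The second was 214 bp wide, at the lower edge of the window (chr4:118109969-118110182), and the last was 151 bp wide in both lists, at chr4:118186248-118186398.

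**Figure D2:**
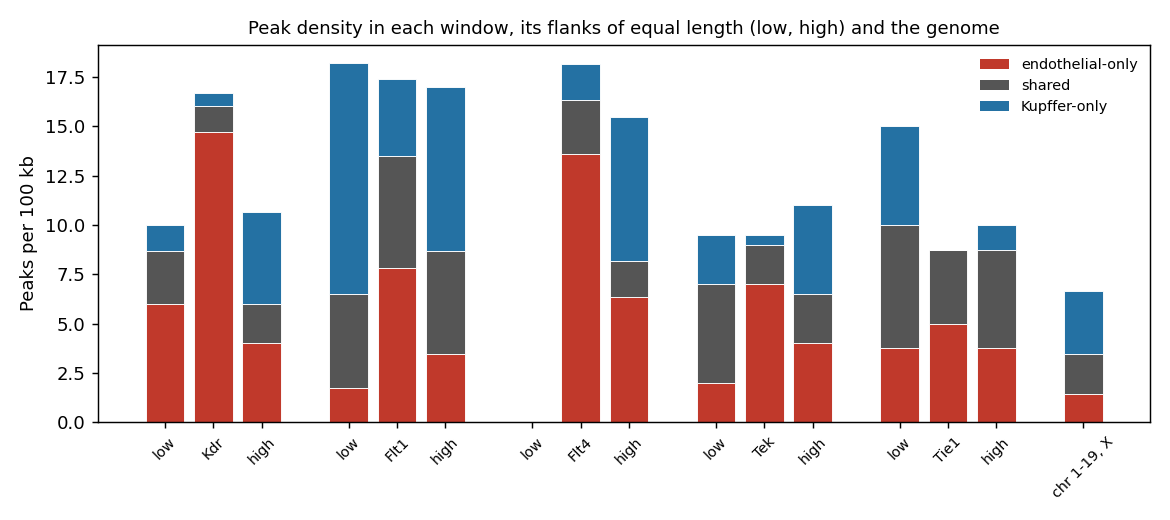
Peaks per 100 kb (stacked bars: endothelial-only, shared and Kupffer-only) in each receptor window, in the flank of equal length on its lower (low) and higher (high) side, and over chromosomes 1 to 19 and X. Endothelial-only peaks reach 14.7 per 100 kb at Kdr and 13.6 at Flt4, and no flank exceeds 6.36; the lower Flt4 flank is empty.

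The flanks of equal length on both sides served as local background. The 10 flanks, 1540 kb in all, held 52 endothelial-only, 82 Kupffer-only and 56 shared endothelial peaks. Endothelial-only peaks were 48.1% of their endothelial peaks (38.4% to 58%) and 38.8% of their peaks of 1 cell type (30.5% to 47.6%), closer to the genome than to the receptor windows. Per 100 kb, the flanks held 3.38 endothelial-only and 5.32 Kupffer-only peaks and the windows 9.48 and 1.69. Summed over the loci, shared peaks were about equally frequent, 3.64 per 100 kb in the flanks and 3.25 in the windows. The genome's value was 2.02. Single loci went both ways. The window value was below both flank values at Kdr (1.33 against 2.67 and 2) and Tek (2 against 5 and 2.5). At Tie1 it was also below both (3.75 against 6.25 and 5). It was above both at Flt1 (5.65 against 4.78 and 5.22) and Flt4 (2.73 against 0 and 1.82). Each window held more endothelial-only peaks than either of its flanks. The difference was smallest at Tie1, with 4 in the window and 3 in each flank. At Kdr the flanks held 9 and 6, at Flt1 4 and 8, at Flt4 0 and 7, and at Tek 4 and 8. Kupffer-only peaks were most numerous beside Flt1, with 27 in the lower and 19 in the higher flank against 9 in the window. Most of the 82 Kupffer-only peaks thus lay beside Flt1, and the summed flank density of 5.32 and share of 38.8% depend largely on that locus. Elsewhere Kupffer-only peaks led only narrowly in some flanks, and endothelial-only peaks led in others. Kupffer-only and endothelial-only peaks numbered 7 and 6 above Kdr, 8 and 7 above Flt4, and 4 and 3 below Tie1. They numbered 5 and 4 below Tek and 9 and 8 above it. The lower Flt4 flank held no peak. Endothelial-only peaks outnumbered Kupffer-only peaks in 2 of the 10 flanks, the lower one of Kdr (9 against 2) and the higher one of Tie1 (3 against 1).

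Within the windows, many endothelial-only peaks lay toward the middle, and the place of shared peaks differed between the loci. In the middle part of 3 equal parts, summed over the windows, there were 41 endothelial-only, 4 shared and 4 Kupffer-only peaks. Both outer parts together held 32 endothelial-only, 21 shared and 9 Kupffer-only peaks. Flt1 supplied 12 of these 21 shared peaks, and the other windows held 9 in the outer parts and 3 in the middle, near the proportion that length alone gives. Endothelial-only peaks in the windows other than Flt1 numbered 32 in the middle part and 23 in the outer parts. Kdr and Flt4 contributed most to the middle part, with 15 and 10 endothelial-only peaks. Tek differed, with 7 endothelial-only peaks in its lower part and 4 in the middle.

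**Figure D3:**
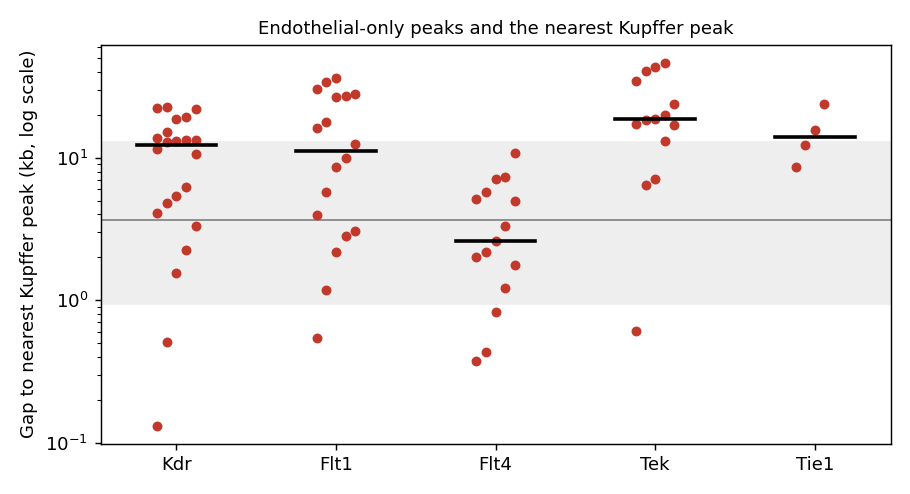
Gap in kb (log scale) from each endothelial-only peak to the nearest Kupffer peak, by window; black bars are window medians, the grey line and band the median (3.67 kb) and quartiles (0.936 and 12.9 kb) of all endothelial-only peaks. Window medians run from 2.6 kb at Flt4 to 18.6 kb at Tek.

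Many endothelial-only peaks of the receptor windows were far from any Kupffer peak. The median gap to the nearest Kupffer peak was 10.5 kb for the 73 peaks, against 3.67 kb for all endothelial-only peaks. More than 10 kb separated 37 of them (50.7%) from a Kupffer peak, against 29.4% genome-wide, and 7 (9.59%) had a Kupffer peak within 1 kb, against 25.9%. By window the median was 18.6 kb at Tek, 14 kb at Tie1, 12.2 kb at Kdr, 11.1 kb at Flt1 and 2.6 kb at Flt4. Flt4 thus stood on the other side of the genome's median from the other four, and 14 of its 15 endothelial-only peaks had a Kupffer peak within 10 kb. The largest gap was 46.4 kb, at Tek. In the opposite direction, 5 of the 13 Kupffer-only peaks (38.5%) lay within 1 kb of an endothelial peak, against 22.5% genome-wide, with a median gap of 2.07 kb against 4.8 kb. These gaps depend on the density of the other list, which is low for Kupffer peaks and high for endothelial peaks in these windows.

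The spacing of endothelial peaks differed between the loci. The median gap between consecutive endothelial peaks was 2196 bp at Flt4, 3433 bp at Kdr, 3627 bp at Flt1, 4970 bp at Tek and 10448.5 bp at Tie1, against 6304 bp over chromosomes 1 to 19 and X. It was thus below the genome's median in 4 windows and above it at Tie1. The 5 windows contained 10 groups of endothelial peaks separated by at most 500 bp, with 22 peaks in all. These were 22.4% of the endothelial peaks, and 29.1% of those on chromosomes 1 to 19 and X had another within that distance, so close groups were not more frequent here. Of these groups, 8 consisted of endothelial-only peaks alone, 4 of them at Kdr. The tightest pair, at Tek, was separated by 16 bp (chr4:94387169-94387585).

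**Figure D4:**
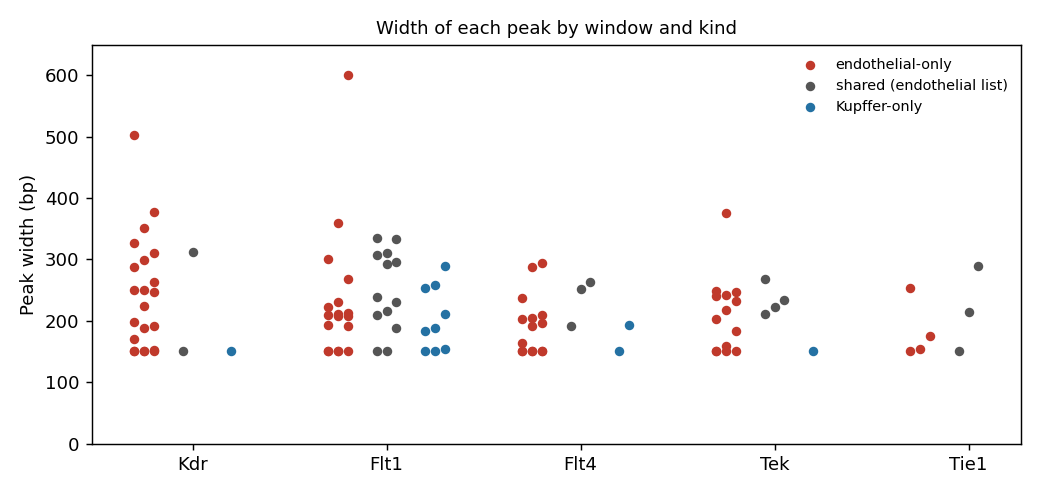
Width in bp of each endothelial-only peak, each shared peak (endothelial list) and each Kupffer-only peak, by window. The widest endothelial-only peaks are 600 bp at Flt1 and 502 bp at Kdr, and no Kupffer-only peak exceeds 290 bp.

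Endothelial-only peaks had a higher median width here than in the list as a whole. It was 203 bp (quartiles 151 and 249 bp), against 171 bp (151 and 232 bp) for all endothelial-only peaks. The smallest common width, 151 bp, was that of 21 of the 73 (28.8%) and of 44.6% of all endothelial-only peaks. A width over 300 bp was found for 8 of them (11%), of which 5 lay at Kdr, 2 at Flt1 and 1 at Tek, against 6.26% of all. Shared endothelial peaks had a median width of 234 bp in the windows and 210 bp in the whole list. The 13 Kupffer-only peaks had a median of 183 bp, against 194 bp for all Kupffer-only peaks, and none was wider than 300 bp. By window, the median width of endothelial-only peaks was 236 bp at Kdr, 210.5 bp at Tek, 209 bp at Flt1, 192 bp at Flt4 and 165 bp at Tie1.

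At the shared sites the endothelial peak was more often the wider of the pair. It was wider at 16 of 25 sites, or 64%, against 42.5% of all shared endothelial peaks, and 4 sites had equal widths. The Kupffer peaks at these sites had a median width of 185 bp, against 207 bp for all shared Kupffer peaks, and 10 of the 25 (40%) had the smallest common width, against 23.9%. Centres of paired peaks were 1 to 219.5 bp apart, with a median of 33 bp. How the libraries were merged into a list is not given in the sources used here, and the part that merging or depth has in peak width was not tested.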

How the data were processed

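The authors deposited 2 peak lists, 1 for endothelial and 1 for Kupffer cells, each with 3 columns (chromosome, start, end) and no score, count or library. Bowtie, HOMER and mm9 are named, without versions, per the submitters' processing notes. Left unstated are the peak threshold, the selection of nucleosome-free fragments, any shift for the transposase and the pooling of libraries (not given in the sources used here). The depth is unknown, and absence from a list means no call, which does not show closed chromatin. The labels group the 32 libraries by title, but no value per library was used.

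Python 3.11.15 with NumPy 2.4.6 served to find overlaps, which were checked against bedtools 2.31.1 (identical numbers of shared peaks) and tested on simulated data. Peaks belong to a window by their centres, and positions count from 1. SciPy 1.17.1 gave the 95% binomial intervals (Clopper-Pearson, exact). Background windows tile chromosomes 1 to 19 and X and hold at least 1 peak. Motifs were searched in the 250 bases before the start in RefSeq promoters of GRCm38.p6; the 50 bases after it were not used.

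The 5 loci and the rules were chosen with earlier results of these data known. Background windows of each locus's own length, the 3 parts of each window and the groups within 500 bp were added after its counts were seen. The named peaks are the 2 widest endothelial-only peaks, the widest shared peak, Kupffer-only peaks (all if 5 or fewer, otherwise the widest) and the ends of the longest run in each window, and single peaks beyond these, such as other members of groups and other shared sites, were named after their values were seen. The overlap rule, peak definition and window limits were varied.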

Additional observations from a re-analysis of the deposited data

How the results depend on the processing

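Of 43 alternative values summed over the windows or for the background share, 37 remained inside the interval given for a share or under a 1.5-fold change of a count, and 6 went beyond. Counting peaks with any overlap with the window, instead of by centre, changed no value. Extending the windows by 50 kb on each side gave 40 Kupffer-only and 42 shared peaks and an endothelial-only share of 69.5% of the peaks of 1 cell type. Shortening them by 20 kb left 16 shared peaks, and leaving out peaks of 151 bp left 15. Without the Flt1 window the share was 93.2%. These settings add or remove sites by construction. Leaving out peaks of 151 bp also turned shared peaks into peaks of 1 cell type where it removed their only overlapping partner. Endothelial-only peaks outnumbered Kupffer-only peaks in 9 of 9 settings at Kdr, Flt4, Tek and Tie1 and in 8 of 9 at Flt1, the exception being the extended window. For single windows, 149 of 175 alternative values stayed within those limits. Intervals of single windows are wide, so this is a weak limit for shares. At Tie1 the endothelial-only share of endothelial peaks was 44.4% in the extended window, against 57.1%, and stayed inside. No paired analysis was possible because libraries are not separable in the lists, and so leaving out a replicate was not possible either. No stricter peak threshold was run, since no score is given. The unknown depth limits every statement about a missing peak.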
